A study of Homo sapiens with 6 samples.

Results

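The genes described here are 10 members of the ATF4 and CHOP stress response, DDIT3 (which encodes CHOP), ATF4, ATF3, ATF5, TRIB3, CHAC1, ASNS, DDIT4, SESN2 and PPP1R15A, chosen by name out of 18417 genes measured. All 10 were found. A probe set counted for a gene when the platform annotation gave that gene's symbol alone, and the brightest such probe set stood for the gene. Expression was compared in WM164, an established human melanoma cell line that carries mutated BRAF and came from a metastasis in a lymph node. IDTC stands for induced drug tolerant cells, which were 3 samples kept for 16 days in 500 nM PLX4032, with the medium renewed every 3 days. PLX4032 is vemurafenib, which inhibits the mutant BRAF kinase. The Parent group was 3 samples given the solvent DMSO. Both groups were grown in RPMI with fetal calf serum, glutamine and antibiotics, and the labels do not say how long DMSO was given. RNA of each sample was isolated separately, but nothing says that the cultures were separate experiments, so the spread behind each p-value may be in part technical. All results come from 1 cell line.

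The integrated stress response is a shared answer of cells to unfolded protein in the endoplasmic reticulum, lack of amino acids, lack of heme and double-stranded RNA. Each of these signals acts through a kinase that phosphorylates the initiation factor eIF2, which lowers protein synthesis in general but raises the translation of ATF4 and ATF5, transcription factors of the basic leucine zipper class. ATF4 then induces genes of amino acid supply, its partner factors CHOP and ATF3, and PPP1R15A, which closes the loop by dephosphorylating eIF2. In melanoma cells this response is known to be engaged by inhibitors of the BRAF pathway. The arrays measured mRNA, not translation or phosphorylation.

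Parts of 6 promoters are shown because they hold letters known as binding elements of this response. The sequences are from RefSeq on GRCh38.p14, where all 10 genes had entries, 18 start sites in all, and the 250 bases before each start were searched on both strands. ATF4 with its C/EBP partners binds TGATGNAA, ATF and CREB factors bind TGACGTCA, AP-1 binds TGACTCA, and the element of endoplasmic reticulum stress reads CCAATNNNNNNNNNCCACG. In each line 5′ to 3′ on the gene's strand, the capitals mark the match.
ASNS (chr7:97872449-97872496, minus strand): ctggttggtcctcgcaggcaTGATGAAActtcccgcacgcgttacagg
CHAC1 (chr15:40953242-40953289, plus strand): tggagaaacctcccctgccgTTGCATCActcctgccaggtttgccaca
ATF3 (chr1:212565196-212565243, plus strand): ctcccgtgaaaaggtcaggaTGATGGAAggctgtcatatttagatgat
PPP1R15A (chr19:48872343-48872390, plus strand): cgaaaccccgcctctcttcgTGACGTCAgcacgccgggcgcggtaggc
ATF5 (chr19:49928698-49928744, plus strand): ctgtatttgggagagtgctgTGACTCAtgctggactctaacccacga
DDIT3 (chr12:57520515-57520764, minus strand): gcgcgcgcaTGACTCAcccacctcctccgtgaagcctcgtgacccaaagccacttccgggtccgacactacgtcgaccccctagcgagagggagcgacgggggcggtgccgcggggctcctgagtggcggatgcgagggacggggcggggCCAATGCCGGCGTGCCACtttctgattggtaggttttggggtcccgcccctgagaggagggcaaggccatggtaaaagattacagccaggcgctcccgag

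The element TGATGNAA lay at -68 to -61 from the start in ASNS, at -191 to -184 in 1 of the 2 ATF3 windows and, on the other strand, at -209 to -202 in CHAC1. It was found in 3.14% of all 35116 windows of this length. TGACGTCA lay at -58 to -51 in PPP1R15A and in 1.65% of all windows. TGACTCA lay at -241 to -235 in DDIT3 and at -188 to -182 in 1 of the 3 ATF5 windows, and in 4.2% of all windows. The whole stress element was in none of the 18 windows and in 0.074% of all, but without its last base it matched DDIT3 at -100 to -83 and 0.282% of all windows. That shorter form was searched after the first search had been seen. None of these elements overlapped another in these windows, and for ATF4, TRIB3, DDIT4 and SESN2 none of these letters were found. A match is a description of letters, not of a bound site.

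In the drug-tolerant cells 7 of the 10 genes rose and 3 fell. DDIT3 rose 7.36-fold, SESN2 4.08-fold and PPP1R15A 2.02-fold, and these were the 3 members that changed by 2-fold or more. PPP1R15A lay at this threshold, with a log2 difference of 1.01 (95% interval 0.88 to 1.15). ASNS, ATF4, ATF3 and TRIB3 rose by 1.54-fold to 1.72-fold, ATF4 only by the brighter of its 2 probe sets. ATF5 was 1.92-fold lower, CHAC1 1.24-fold lower and DDIT4 1.15-fold lower. A gene counted as called where limma gave it an adjusted p (Benjamini-Hochberg, over all 18417 genes) under 0.05, which held for 46.6% of them, 21.7% higher and 24.9% lower. Of all genes 9.21% were called with a change of 2-fold or more, 3.81% higher and 5.4% lower. The groups did not overlap for any of the 10 genes, and did not overlap for 54.1% of all genes. The median log2 difference (IDTC minus Parent) of the 10 genes was 0.67, against -0.01 over all genes, and the median of its absolute size was 0.73, against 0.21. These medians only describe the set, because its genes were chosen with earlier results of these data known. Differences and levels below are on the deposited log2 scale, and errors of differences are standard errors.

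**Figure D1:**
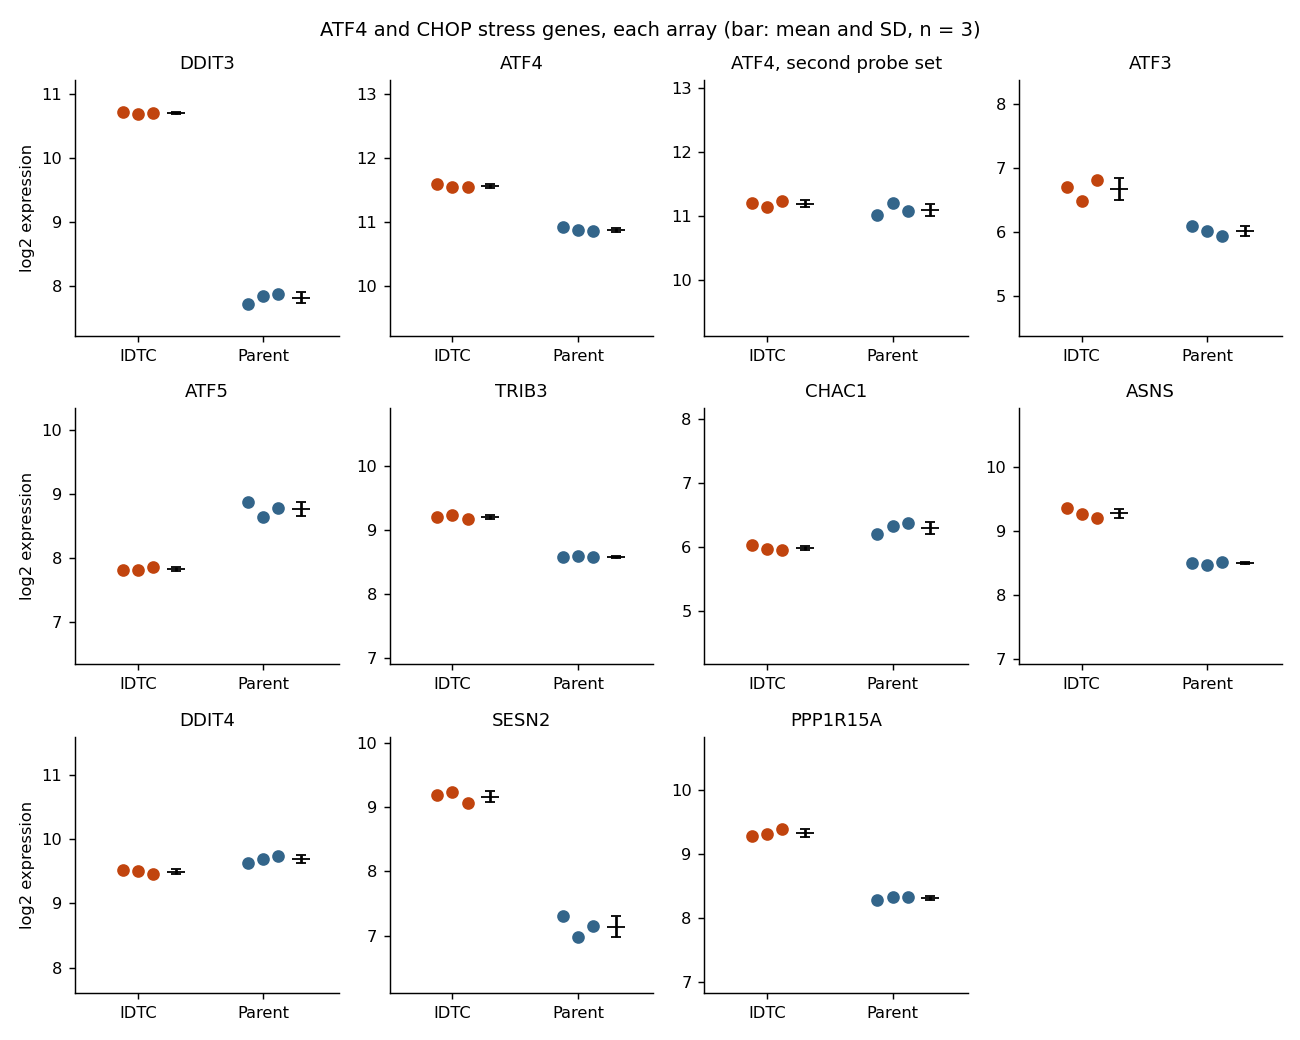
Log2 expression of the 10 stress genes, and of the second ATF4 probe set, on each array (points) with the mean and SD of each group (bars, n = 3), IDTC left and Parent right; all panels cover the same span of log2 units. DDIT3 sat at 10.69 to 10.72 in IDTC and 7.73 to 7.88 in Parent arrays, while the second ATF4 probe set overlapped between the groups.

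DDIT3 encodes CHOP, a transcription factor that pairs with C/EBP proteins and is associated with cell death under lasting stress. Its log2 expression was 10.72, 10.69 and 10.70 in the IDTC arrays, against 7.73, 7.85 and 7.88 in the Parent arrays. The IDTC arrays lay within a few hundredths of each other and far above every Parent array. The means were 10.70 ± 0.02 in IDTC and 7.82 ± 0.08 in Parent (SD, n = 3 each), a difference of 2.88 ± 0.06 (limma, adjusted p = 1.96e-07). In the order of all 18417 differences it stood 25th from the highest. The 3 genes outside the set whose values ran closest to it over the 6 arrays, by the root mean square difference of mean-centred log2 values, were KLHL24 (0.06), MLPH (0.06) and MBP (0.09). This likeness rests mainly on the difference between the groups, which all 6 arrays share.

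ATF4, the central factor of the response, was measured by 2 probe sets that gave different answers. The brighter one, whose only listed transcript is NM_182810, read 11.59, 11.55 and 11.56 in IDTC arrays, against 10.92, 10.87 and 10.86 in Parent arrays. It rose by 0.68 ± 0.05 (limma, adjusted p = 2.65e-05), with no overlap between the groups. The other, listed for NM_001675, read 11.21, 11.14 and 11.24 in IDTC arrays, against 11.02, 11.20 and 11.08 in Parent arrays, so the groups overlapped. Its difference was 0.09 ± 0.07 and was not called (limma with this probe set standing for ATF4, adjusted p = 0.298). With the mean of both probe sets ATF4 had a difference of 0.39. The rise of ATF4 mRNA thus depended on the probe set, and 6 in place of 7 members were higher when the dimmer one was used. Brighter and dimmer refer to the mean over all 6 arrays. In Parent arrays the order was the reverse, 10.88 for the chosen probe set and 11.10 for the other. The rule of keeping the brightest probe set thus favoured the one that was high in IDTC.

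ATF3, a factor of the same class that is induced early in many stresses, read 6.71, 6.48 and 6.82 in IDTC arrays, against 6.10, 6.01 and 5.94 in Parent arrays. The IDTC arrays were the more scattered ones but all lay above the Parent arrays. ATF3 rose by 0.65 ± 0.09 (limma, adjusted p = 8.53e-04). By its mean over the arrays it was among the dimmest 40% of genes, where the table gives no detection call and a fold change may be understated.

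ATF5, which like ATF4 is controlled by translation when eIF2 is phosphorylated, went the other way. It read 7.81, 7.82 and 7.86 in IDTC arrays, against 8.87, 8.65 and 8.79 in Parent arrays. Every IDTC array was below every Parent array, and the gene fell by 0.94 ± 0.07 on the log2 scale (limma, adjusted p = 2.46e-05). Among the 4 transcription factors of the set, DDIT3, ATF3 and the brighter ATF4 probe set were therefore higher and ATF5 lower.

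SESN2, a leucine sensor that restrains the growth kinase complex mTORC1, read 9.20, 9.23 and 9.07 in IDTC arrays, against 7.30, 6.97 and 7.14 in Parent arrays. The groups were far apart, and the Parent arrays spread more than those of IDTC. It rose by 2.03 ± 0.09 (limma, adjusted p = 2.76e-06) and stood 100th from the highest of all genes. DDIT4, known as REDD1, also restrains mTORC1 but did not move with SESN2. It read 9.53, 9.50 and 9.46 in IDTC arrays, against 9.63, 9.70 and 9.75 in Parent arrays. The groups were separate by a narrow margin. DDIT4 fell by 0.20 ± 0.06 (95% interval -0.33 to -0.07, limma adjusted p = 0.0224), and this call was lost after quantile normalization (adjusted p = 0.137) and without Parent 2 (0.0702), Parent 3 (0.0833) or IDTC 2 (0.0587).

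PPP1R15A, known as GADD34, brings protein phosphatase 1 to eIF2 and so ends the block of translation. It read 9.28, 9.32 and 9.39 in IDTC arrays, against 8.28, 8.33 and 8.33 in Parent arrays. All IDTC arrays were higher, and the gene rose by 1.01 ± 0.06 (limma, adjusted p = 5.93e-06). TRIB3, a pseudokinase that binds ATF4, CHOP and AKT, read 9.20, 9.23 and 9.17 in IDTC arrays, against 8.58, 8.60 and 8.57 in Parent arrays. Its arrays were among the tightest of the set, and it rose by 0.62 ± 0.05 (limma, adjusted p = 3.83e-05).

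ASNS makes asparagine from aspartate and is a classical target of ATF4. It read 9.36, 9.27 and 9.22 in IDTC arrays, against 8.51, 8.48 and 8.52 in Parent arrays. The groups were separate, and the gene rose by 0.78 ± 0.06 (limma, adjusted p = 2.61e-05). CHAC1 breaks down glutathione and is another target of ATF4, with the element shown above in its promoter. It read 6.03, 5.96 and 5.96 in IDTC arrays, against 6.20, 6.33 and 6.37 in Parent arrays. It was a dim gene (percentile 36.6 of all genes) and fell by 0.32 ± 0.06 (limma, adjusted p = 4.87e-03). Of the 3 members with the TGATGNAA letters, ASNS and ATF3 thus rose and CHAC1 fell.

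**Figure D2:**
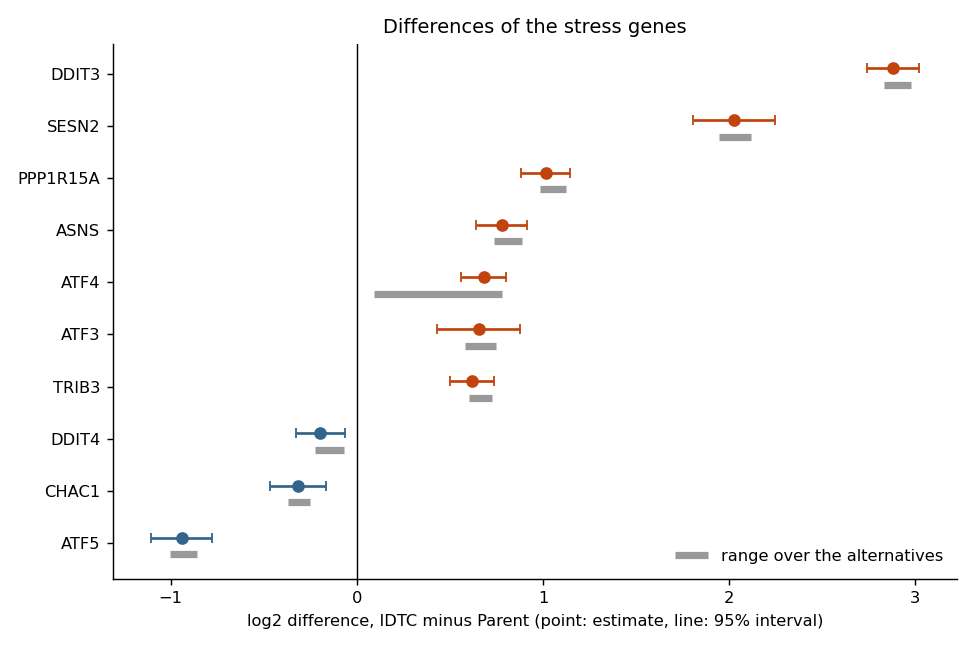
Log2 difference, IDTC minus Parent, of each stress gene (points) with its 95% interval from limma (lines) and the range over the alternatives in processing (grey bars). DDIT3 (2.88) and SESN2 (2.03) stand apart at the top, and the range of ATF4 reaches down to 0.09, the value of its second probe set.

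**Figure D3:**
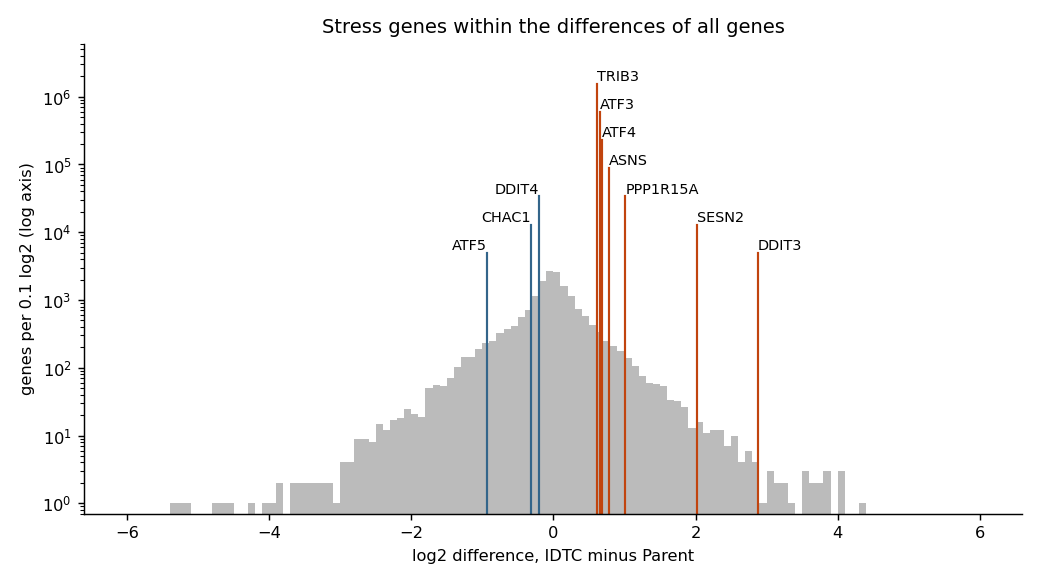
Histogram of the log2 differences of all 18417 genes (grey, log axis), with the 10 stress genes as vertical lines whose heights carry no value. DDIT3 and SESN2 lie farthest out in the upper tail, PPP1R15A stands 683rd from the highest, and ATF5 is the lowest member.

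Genes upstream of ATF4 were lower more often than higher. The list held eIF2, its kinases, its exchange factor and its phosphatase, and further genes linked to these, such as IMPACT, DELE1, OMA1 and GCN1. In it 4 of 22 genes rose and 11 fell, while 7 were not called, with a median log2 difference of -0.19. Of those that rose, only EIF2AK1 was not one of the further genes. Over all genes 21.7% were called higher and 24.9% lower, and these shares stand beside each list below as well. EIF2B3, a subunit of the exchange factor eIF2B, fell by 1.54 ± 0.07, and all 5 eIF2B subunits fell. EIF2S1, which encodes the subunit of eIF2 that the stress kinases phosphorylate, averaged 9.62 in IDTC and 10.76 in Parent arrays and fell by 1.14 ± 0.06 (limma, adjusted p = 5.98e-06). EIF2B2 fell by 0.88 ± 0.06, and IMPACT, which restrains the amino acid sensing kinase GCN2, rose by 0.86 ± 0.11. Chosen after their values were seen, the 4 eIF2 kinases are given here in full. EIF2AK1, the kinase that senses lack of heme, rose by 0.47 ± 0.06, while EIF2AK3 (PERK, 0.11 ± 0.08), EIF2AK4 (GCN2, -0.17 ± 0.08) and EIF2AK2 (PKR, -0.12 ± 0.08) were not called. DELE1 and OMA1, which carry mitochondrial stress to EIF2AK1, rose by 0.77 ± 0.06 and 0.69 ± 0.07, and were also chosen after their values were seen. GCN1, of the same list, fell (-0.61 ± 0.07). PPP1R15B, a relative of PPP1R15A, was not called (-0.01 ± 0.06).

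Factors of the basic leucine zipper class and other stress factors, only some of them partners of ATF4 or CHOP, were higher more often than lower. Here 10 of 19 measured genes rose and 1 fell (BATF3, -0.74 ± 0.08), while 8 were not called, with a median of 0.23. NUPR1, a stress-induced cofactor, averaged 11.44 in IDTC and 9.64 in Parent arrays and rose by 1.80 ± 0.06 (limma, adjusted p = 9.61e-07). CEBPD, a member of the C/EBP family with which CHOP pairs, rose by 1.45 ± 0.05, JDP2 by 1.05 ± 0.10 and CREB1 by 1.04 ± 0.07.

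Targets of ATF4 in amino acid supply were divided. In this list 7 of 20 measured genes rose and 7 fell, while 6 were not called, with a median of 0.05. CTH, which makes cysteine from cystathionine, averaged 8.76 in IDTC and 7.22 in Parent arrays and rose by 1.54 ± 0.07 (limma, adjusted p = 2.07e-06). The neutral amino acid carrier SLC1A4 rose by 1.34 ± 0.06 and the serine synthesis enzyme PSAT1 by 1.17 ± 0.07. ALDH18A1, which starts proline synthesis from glutamate, fell by 0.89 ± 0.07. In tRNA charging and export 6 of 13 genes rose and 2 fell, while 5 were not called, with a median of 0.16. The alanyl-tRNA synthetase AARS1 rose by 1.24 ± 0.05, the seryl-tRNA synthetase SARS1 by 0.76 ± 0.05, the tryptophanyl-tRNA synthetase WARS1 by 0.54 ± 0.05 and XPOT, which exports tRNA from the nucleus, by 0.46 ± 0.05. The 2 lower calls became 1 without any of Parent 2, Parent 3, IDTC 1, IDTC 2 or IDTC 3. The same held after quantile normalization over all probe sets and with a replicate block.

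A list of further genes linked to ATF4 or CHOP, not all of them established targets, was divided too. In it 8 of 22 genes rose and 6 fell, while 8 were not called, with a median of 0.07. KLHL24 averaged 9.48 in IDTC and 6.66 in Parent arrays and rose by 2.82 ± 0.07 (limma, adjusted p = 2.80e-07). NIBAN1 rose by 2.47 ± 0.08 and the collagen receptor DDR2 by 1.51 ± 0.06. CHAC2, the relative of CHAC1 that also acts on glutathione, is like DDR2 not an established target. CHAC2 averaged 5.63 in IDTC and 8.07 in Parent arrays and fell by 2.44 ± 0.12 (limma, adjusted p = 3.04e-06). Besides CHAC2, ERO1A (-1.39 ± 0.06), GDF15 (-0.78 ± 0.05) and EIF4EBP1 (-0.60 ± 0.06) fell. ATG12 (-0.47 ± 0.06) and the dim gene STC2 (-0.40 ± 0.09) fell too, against the 8 that rose.

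Genes linked to CHOP or to cell death under stress, not all of them targets of CHOP, were lower more often than higher. Here 2 of 12 measured genes rose and 5 fell, while 5 were not called, with a median of -0.12. Over all genes 21.7% were called higher and 24.9% lower. The list also holds the anti-apoptotic genes BCL2 and MCL1, which were not called. TNFRSF10B, the death receptor DR5 and a known target of CHOP, averaged 8.30 in IDTC and 9.71 in Parent arrays and fell by 1.41 ± 0.06 (limma, adjusted p = 1.98e-06). PMAIP1, which encodes the pro-apoptotic protein NOXA, fell by 1.47 ± 0.09, the stress kinase gene MAP3K5 fell by 0.72 ± 0.10 and CASP4 fell by 0.56 ± 0.06. The 2 that rose were ERN1 (0.18 ± 0.05), the IRE1 sensor, and BCL2L11 (0.16 ± 0.05), which encodes the pro-apoptotic protein BIM. Both calls were weak. ERN1 was not called after re-centring on the array medians (adjusted p = 0.0963) or without Parent 2 (0.0921), Parent 3 (0.067) or IDTC 1 (0.0672). BCL2L11 was not called under these 4 settings either (adjusted p = 0.0833 to 0.138), nor under 3 others, of which 2 left out Parent 1 (0.0601) or IDTC 2 (0.0895).

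Chaperones and other genes of the endoplasmic reticulum, listed for the ATF6 and XBP1 arms of the unfolded protein response, mostly moved against DDIT3. Of these 20 genes 15 fell and 2 rose, while 3 were not called, with a median of -0.66. PDIA4, a disulfide isomerase, averaged 9.84 in IDTC and 11.05 in Parent arrays and fell by 1.21 ± 0.05 (limma, adjusted p = 1.91e-06). HYOU1 fell by 1.19 ± 0.05, SDF2L1 fell by 1.08 ± 0.05 and CRELD2 fell by 1.07 ± 0.06. The 2 that rose were HERPUD1 (0.92 ± 0.05) and SEL1L (0.90 ± 0.06), both of the machinery that removes misfolded proteins. Other listed genes of that machinery did not rise. EDEM1 (-0.92 ± 0.13), DERL3 (-0.74 ± 0.11) and DERL1 (-0.37 ± 0.08) fell, and SYVN1 (-0.09 ± 0.05) was not called. Around mTORC1 4 of 14 genes rose and 5 fell, while 5 were not called, with a median of 0.01. SESN3, the relative of SESN2, rose by 1.75 ± 0.06 and the arginine sensor gene CASTOR1 by 0.71 ± 0.10. PRKAA2, a catalytic subunit of the energy sensor AMPK, fell by 1.89 ± 0.05 and AKT1S1, an mTORC1 component, fell by 0.70 ± 0.06.

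**Figure D4:**
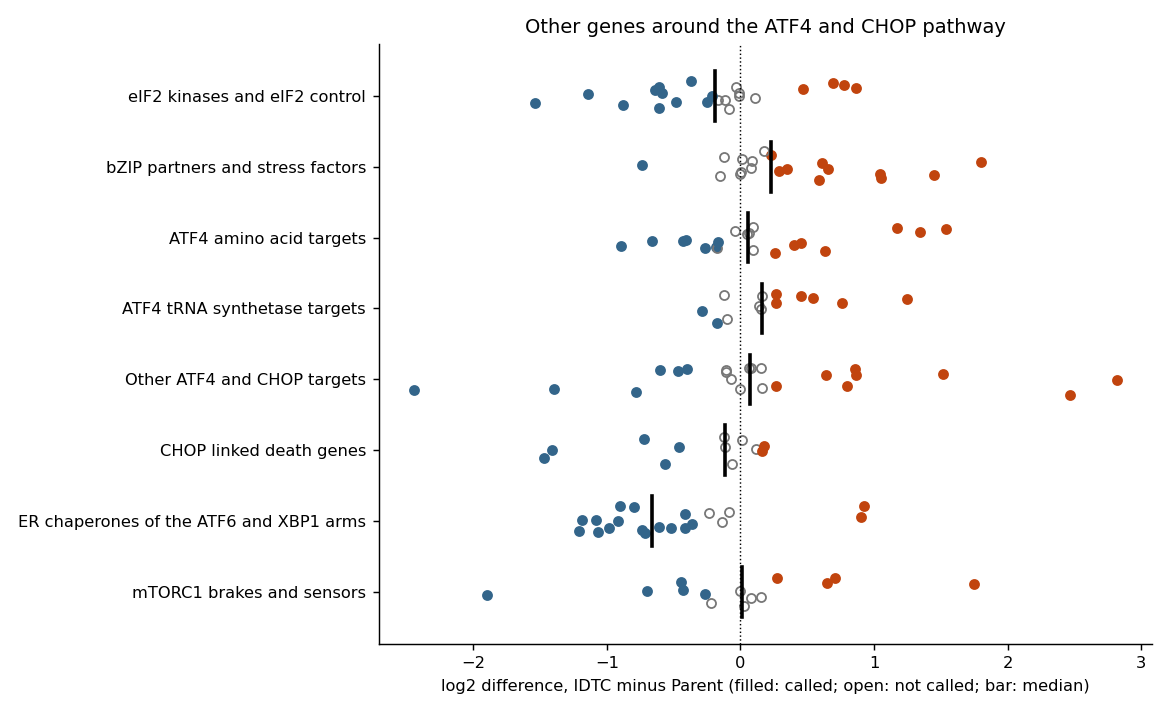
Log2 difference, IDTC minus Parent, of each measured gene in 8 lists around the pathway (filled points were called, open points were not; bars are list medians). The chaperone list has the lowest median (-0.66) and the list of partner and stress factors the highest (0.23).

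The 7 melanocyte markers averaged 10.99 to 11.16 in IDTC and 10.15 to 10.19 in Parent arrays, above the other marker lists in both groups. Of these 7 markers 5 rose, among them TYRP1 (2.89 ± 0.12, averaging 7.58 in IDTC and 4.69 in Parent), S100B fell by 0.85 ± 0.07 and MITF was not called. Keratinocyte and endothelial markers were dim and limma called 0 of 6 in either list, with 0 of 6 at an unadjusted p under 0.05 in either. The 6 fibroblast markers averaged 5.80 in each IDTC array and 5.89 to 5.96 in Parent arrays, with 1 higher and 2 lower. The 5 immune markers averaged 4.56 to 4.69 in IDTC and 5.11 to 5.15 in Parent arrays, with LYZ lower (-3.03 ± 0.09), MS4A1 higher (0.37 ± 0.12), 3 not called and a median difference of 0.04. The part of such markers in the stress gene results was not tested, and no marker has a true zero on this scale. Over the 18417 genes, arrays of a group correlated at 0.995 to 0.998 and arrays of different groups at 0.953 to 0.957.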

How the data were processed

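The deposited table gives log2 expression for 33297 probe sets on 6 whole-transcript arrays, normalized by the authors. Affymetrix Expression Console, RMA and Partek 6.6 are named per the submitters' processing notes, with no role or order. No genome build is given in the labels or the file. Array medians were 6.25 to 6.36, and the number of arrays limits the precision. The platform annotation gave 1 symbol for 19460 probe sets and several for 1754. The brightest of a gene's probe sets was kept, which left 18417 genes. Of the probe sets with 1 symbol, 19429 matched a RefSeq gene record of GRCh38.p14.

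Linear models were fitted on all 6 arrays in R 4.3.3 by lmFit and eBayes of limma 3.58.1 (2-sided, without covariates or a filter on dim genes), and p-values were adjusted by Benjamini-Hochberg over all genes. The procedure was tested on simulated data. Alternatives were other scalings, variance priors, filters and probe sets, a replicate block and each array left out. Lists are described by counts and medians, with no set test. From each list up to 4 called genes with the largest absolute difference were named, and some further genes were named after their values were seen. The members and the lists were chosen with earlier results of these data known, so they are no independent support for any direction. Some listed genes without a probe set of their own (ATF1, ATF6B, CBS, GPT2, TRAF2, PDIA3 and DCT among them) were not analysed here.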

Additional observations from a re-analysis of the deposited data

How the results depend on the processing

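Under 15 alternatives (3 of them chosen after seeing the data) DDIT3, SESN2, PPP1R15A, ASNS, TRIB3 and ATF5 kept their direction and their call, and ATF3 and CHAC1 did so under the 14 that measured them, since both were left out with the dimmest 40% of genes. The log2 difference of DDIT3 ran from 2.83 to 2.98, that of SESN2 from 1.94 to 2.12 and that of CHAC1 from -0.37 to -0.25. That of PPP1R15A ran from 0.983 to 1.123 and that of ATF5 from -1.001 to -0.860, so whether these reached 2-fold depended on the setting. ATF4 was called under 14 of 15, the exception being its dimmer probe set (0.0928, adjusted p = 0.298), an alternative chosen after seeing the data. These 14 all used the brighter probe set, alone or averaged with the dimmer one, so they could not show the disagreement between them. DDIT4 was called under 9 of 15. It was not called after quantile normalization over all probe sets (-0.11, adjusted p = 0.137) or over the genes (-0.0712, adjusted p = 0.326), nor after re-centring on the median of the genes (-0.13, adjusted p = 0.0823), the last 2 chosen after seeing the data; the cause was not tested. With 1 array left out, DDIT4 ran from -0.23 to -0.17. Re-centring on the genes called 4846 genes higher and 4017 lower, against 3996 and 4592 in the deposited scaling. The replicate numbers of the titles gave no clear pairing. The deviations from the group means correlated at 0.31, -0.19 and 0.26 for same-numbered arrays, and Parent 2 correlated best with IDTC 3. Deviations cancel out within a group, which forces mixed signs, so these values cannot exclude a pairing. The fit with a replicate block called 8855 genes, against 8588 without it, and changed no call of a member. The number of called genes in the lists moved by over 1.5 times for none of the 8 taken both directions together. By direction, the death genes had 0 to 3 higher (2 as reported) and the tRNA genes 1 to 3 lower (2 as reported), and no other count moved by over 1.5 times. Signal over background could not be judged, as the table has no detection calls.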

Other observations

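The deviations of the arrays from their group means, taken over 18417 genes, correlated across the groups in a way that followed the replicate numbers only in part. Parent 1 correlated at 0.31 with IDTC 1 and at 0.29 with IDTC 2, and at -0.47 with IDTC 3. Parent 2 and Parent 3 correlated with IDTC 3 at 0.37 and 0.26, and with IDTC 1 at -0.28 and -0.14. Deviations cancel out within a group, so positive and negative correlations must occur together, and these values alone cannot show a batch. The labels name no batch.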
